A study of Mus musculus with 8 samples.

Results

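The myosin light chains and the kinases that phosphorylate them were followed in cardiomyocytes purified from neonatal mouse hearts. The group holds 9 genes, taken by symbol from the 48440 entries of the count table, namely Myl1, Myl2, Myl3, Myl4, Myl6, Myl7, Myl9, Mylk and Mylk3. All 9 passed the filter on low counts and were tested. RNA was sequenced from C57BL6/J pups at postnatal day 2, with 1 male and 1 female heart from each of 4 litters, so that 4 males and 4 females gave 8 libraries. The animals carry no transgene, treatment or induced allele according to the labels, and sex and litter are the only labelled differences. Which heart chambers went into the preparation is not given in the sources used here. Nor do the labels say whether the litters were prepared on different days, so litter and day cannot be told apart.

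Each myosin head carries a regulatory and an essential light chain, which stiffen the lever arm and tune its motion. Muscles choose among isoforms of both chains: Myl2 (regulatory) and Myl3 (essential) are the ventricular pair, Myl7 (regulatory) and Myl4 (essential) the atrial pair, and Myl4 is also made in embryonic ventricle and skeletal muscle. Myl1 encodes the essential chain of fast skeletal muscle, Myl6 the essential chain of smooth muscle and non-muscle cells, and Myl9 their regulatory chain. Kinases dependent on calcium and calmodulin phosphorylate a serine near the start of the regulatory chains: Mylk3 is the cardiac kinase, and Mylk the broadly expressed kinase of smooth muscle and endothelium.

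The serine that the kinases act on is shown first, because it joins the substrates of this family to its enzymes. The lines below give the coding sequence from the start codon of the 3 regulatory chains, in GENCODE M21 on GRCm38. Capitals mark the codon of the serine, and the lines end 6 codons after it.
Myl2: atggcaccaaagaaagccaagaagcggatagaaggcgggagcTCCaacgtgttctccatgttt
Myl7: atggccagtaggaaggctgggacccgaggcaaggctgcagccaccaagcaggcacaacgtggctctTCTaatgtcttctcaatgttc
Myl9: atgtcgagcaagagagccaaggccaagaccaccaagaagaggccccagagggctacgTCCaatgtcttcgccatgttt
This serine is codon 15 in Myl2, codon 23 in Myl7 and codon 20 in Myl9, counted from the start codon, so the atrial chain has the longest stretch before it. Over their coding sequences, Myl2 and Myl7 were identical at 64.7% of 487 aligned bases, Myl2 and Myl9 at 65.5% of 493, and Myl7 and Myl9 at 67.4% of 503. The ventricular and the atrial essential chain, Myl3 and Myl4, were closer, with 78.1% of 579 aligned bases identical.

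The start regions are shown next, since chains of different chambers and tissues are compared throughout. In RefSeq (GRCm38.p6), 12 start regions were listed for the 9 genes. The 200 bases before each start were searched on both strands for the CArG box, the site of serum response factor, for the MEF2 site and for GATAAG. A CArG box was found in 4 of 12 windows, those of Myl3, Myl7, Myl9 and 1 of the starts of Myl6, while 1.18% of 32851 mouse windows of this length hold it. GATAAG was found in 2 windows, those of Myl7 and of 1 start of Mylk3, against 5.13% of all windows, and the MEF2 site in 0 windows, against 2.29%. A match describes letters in the window and is not evidence of binding. The 3 windows below end at the base before the start of Myl3, Myl7 and Myl9, with the CArG box in capitals. They lie at chr9:110763478-110763677 (plus strand), chr11:5898783-5898982 (minus strand) and chr2:156775264-156775463 (plus strand).
Myl3: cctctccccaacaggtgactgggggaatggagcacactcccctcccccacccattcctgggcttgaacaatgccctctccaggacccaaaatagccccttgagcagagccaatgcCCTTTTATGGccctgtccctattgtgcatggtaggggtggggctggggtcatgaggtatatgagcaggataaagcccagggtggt
Myl7: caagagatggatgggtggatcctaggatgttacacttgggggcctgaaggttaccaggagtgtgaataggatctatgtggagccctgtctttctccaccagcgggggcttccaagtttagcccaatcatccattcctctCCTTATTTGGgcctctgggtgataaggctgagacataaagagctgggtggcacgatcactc
Myl9: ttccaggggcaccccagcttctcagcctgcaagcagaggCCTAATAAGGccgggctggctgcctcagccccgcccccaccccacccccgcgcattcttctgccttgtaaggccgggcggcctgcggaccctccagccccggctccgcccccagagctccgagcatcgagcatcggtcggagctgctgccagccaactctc
The box lies 85 to 76 bases before the start in Myl3, 61 to 52 bases in Myl7 and 161 to 152 bases in Myl9. In Myl7 it is followed by GATAAG at 41 to 36 bases before the start. The RefSeq starts of Myl3, Myl7 and Myl9 lie 32, 0 and 7 bases from a GENCODE M21 start, whereas those listed for Myl2 lie 7762 and 8227 bases from one, so no window is shown for Myl2.

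In GENCODE M21 (GRCm38, the assembly also called mm10) the genes lie on 8 chromosomes, with Myl4 and Myl7 far apart on chromosome 11. Myl2 spans chr5:122100951-122113472, Myl3 chr9:110741861-110769798, Myl4 chr11:104550663-104595753, Myl7 chr11:5896637-5898782, Mylk3 chr8:85324303-85386345 and Mylk chr16:34745210-35002420. Myl9 spans chr2:156775420-156781658, Myl6 chr10:128490860-128494145 and Myl1 chr1:66924295-66945404. For Myl2, Myl3, Myl4, Myl7, Myl9 and Mylk3, 0% of the windows of 100 bases (the read length) in the longest coding transcript occur unchanged in another gene. For Myl1 the share was 9.4%, all in the pseudogene Mylf-ps, for Myl6 7.9%, in processed copies such as Gm8894, and for Mylk 2.3%, in antisense transcripts such as E130310I04Rik. The counts of these 3 genes are therefore less certain. Myl2, Myl3, Myl4, Mylk and Mylk3 also overlap genes on the opposite strand, such as Pth1r over Myl3. Whether strand was used in counting is not given in the sources used here.

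Library totals ran from 14226342 to 24910243 counts, and levels below are scaled to the library's total to give CPM, the usual unit for depth, where each library is 1 heart. Together the 9 genes took 1.52 to 2.06% of the counts of a library. Litter 3 stood apart from the other litters for many genes, and the litter tests of the 9 genes and of their ratios are also given without it. Markers of the labelled cell type led: the 8 cardiomyocyte markers summed to between 59427 and 75604 CPM, against 15.98 to 150.5 CPM for 8 endothelial and 33.1 to 246 CPM for 8 fibroblast markers. Erythroid markers summed to 99.3 to 541 CPM, and mural or smooth muscle markers, which include Des, to 2485 to 3068 CPM. Such sums depend on the genes listed and do not measure purity.

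The ventricular chains were the most abundant members in every library, at levels among the highest of all genes. Myl2 ranked 9th by mean CPM of 48440 entries, and Myl3 16th. Myl2 had 12544, 11169, 9449 and 12496 CPM in the males of litters 1 to 4 and 12993, 11540, 9992 and 13317 CPM in the females. Myl3 had 5771, 5520, 4523 and 5648 CPM in the males and 5848, 5629, 4705 and 6055 CPM in the females. For both genes the pups of litter 3 were the lowest of the 8, and the female was above the male in all 4 litters, by small amounts. Together these values place litters 1 and 4 at the top for Myl2 and litter 2 between them and litter 3.

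The atrial chains were present at levels below 3% of their ventricular partners and varied most from heart to heart. Myl7 had 41.5, 154, 36.8 and 56.5 CPM in the males of litters 1 to 4, and 24.6, 7.08, 18.7 and 41.1 CPM in the females. Myl4 had 59.6, 162, 88.1 and 69.4 CPM in the males and 36.6, 19.6, 72.4 and 53.2 CPM in the females. For both genes the male of litter 2 was the highest library and its sister the lowest. In that litter the male exceeded the female 21.7-fold for Myl7 and 8.29-fold for Myl4, while the other litters showed 1.37-fold to 1.97-fold and 1.22-fold to 1.63-fold. The coefficient of variation over the 8 libraries was 96.0% for Myl7 and 61.2% for Myl4, against 12.1% for Myl2 and 10.1% for Myl3.

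The skeletal and the smooth muscle and non-muscle chains spanned a wide range of levels. Myl9 had 613, 567, 353 and 503 CPM in the males of litters 1 to 4 and 588, 447, 364 and 417 CPM in the females, so both pups of litter 3 were the lowest. Myl6 was steadier, at 97.0, 112, 106 and 124 CPM in the males and 95.7, 88.0, 104 and 106 CPM in the females. Myl1 was near the low end, at 9.39, 14.01, 6.66 and 7.80 CPM in the males and 8.37, 6.40, 7.87 and 7.94 CPM in the females. As for the atrial chains, the male of litter 2 was the highest library for Myl1 and its sister the lowest, with 333 and 140 counts. Of the 12 skeletal muscle markers, the myogenic factors Myod1, Myf5 and Pax7 had 0 counts in all 8 libraries, Myog had counts in 7, and the list summed to between 11.0 and 19.8 CPM. Most of this came from Mybpc2 (4.22 to 12.97 CPM) and Tnni2 (3.49 to 6.31 CPM), proteins of fast fibres.

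Of the kinases, Mylk3 was abundant and even, and Mylk was nearly absent. Mylk3 had 611, 655, 633 and 614 CPM in the males of litters 1 to 4 and 596, 596, 740 and 607 CPM in the females, a coefficient of variation of 7.60%, the smallest of the 9 genes. Mylk had 3.13, 5.98, 2.31 and 4.88 CPM in the males and 5.77, 8.23, 2.39 and 5.30 CPM in the females, from as few as 34 counts. The 2 kinases thus differed 72.5-fold in counts in the female of litter 2 and 310-fold in the female of litter 3, the extremes of the 8 libraries. Both pups of litter 3 were lowest for Mylk, and the pups of litter 2 were the highest.

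**Figure D1:**
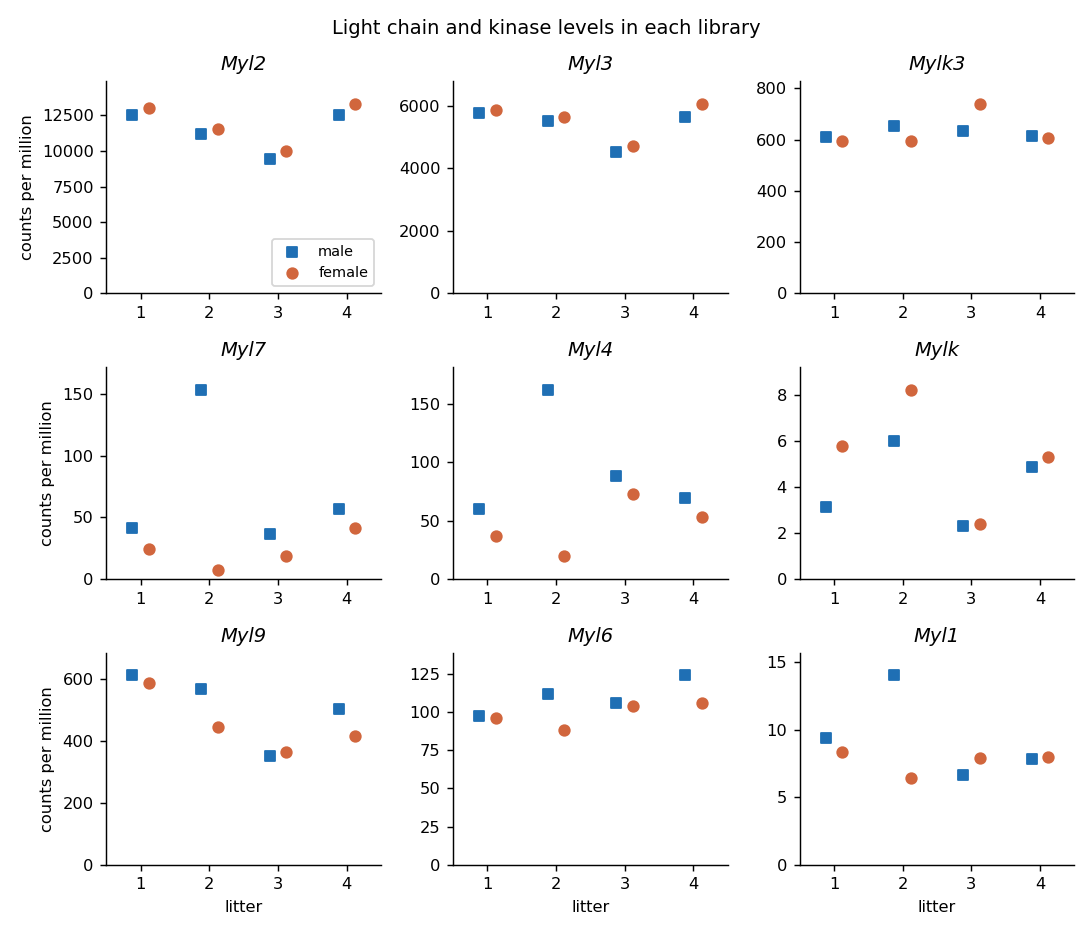
CPM (linear axis from 0, a scale of its own in each panel) of the 9 genes in each library, by litter, with squares for males and circles for females. The pups of a litter lie close together for Myl2 and Myl3, whereas the male and the female of litter 2 are the highest and the lowest library for Myl7 (154 and 7.08 CPM), Myl4 and Myl1.

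Levels were compared between genes after division by length, as CPM per kilobase of the longest coding transcript. The order was Myl2 (13147 ± 1587, SD, n = 8), Myl3 (5830 ± 587), Myl9 (427 ± 89.9), Mylk3 (171 ± 13.0), Myl7 (80.5 ± 77.3), Myl4 (74.4 ± 45.5), Myl6 (62.3 ± 6.55), Myl1 (7.91 ± 2.21) and Mylk (0.607 ± 0.261). Ranges over the 8 libraries did not overlap between neighbours for Myl2 and Myl3, Myl3 and Myl9, Myl9 and Mylk3, Myl6 and Myl1, or Myl1 and Mylk. Mylk3 overlapped Myl7 (12.01 to 261), and Myl7, Myl4 and Myl6 could not be ordered. With the union of all exons as the length, an alternative chosen after the data were seen, Myl4 fell to 15.1 and came below Myl6 at 32.6, and the level of Myl2 was 5994.

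Sex was the first comparison, asking whether the family differs between male and female pups. No member passed in edgeR's quasi-likelihood test, male minus female, adjusted over 13771 genes, of which 0.0436% were called (0.0363% higher in males), and the same 0 of 9 was found by DESeq2. Without litter in the model, the members at an unadjusted p-value under 0.05 were the atrial pair, among 306 of all genes. In edgeR's quasi-likelihood test Myl7 had a log2 fold change of 1.64 (SE 0.55, unadjusted p = 0.0135, adjusted p = 1). Myl4 had one of 1.07 (SE 0.39, edgeR unadjusted p = 0.0203, adjusted p = 1). Both were higher in the male of 4 of 4 litters. With litter as a block, which compares brother and sister, the fold change of Myl7 was 1.51 (SE 0.46, adjusted p = 0.295) and that of Myl4 1.05 (SE 0.33, adjusted p = 0.3), and still 0 of 9 members were called, against 0.211% of all genes. With the block, 5 members had an unadjusted edgeR p under 0.05, among 1592 of all genes: this pair, Myl6 (0.0237), Myl9 (0.0258) and Mylk (0.0266). Without litter 2, left out after the data were seen, the values were 0.66 and 0.43, so both were smaller without this litter. Whether a heart held fewer atrial cells or less of these transcripts per cell cannot be told apart in bulk RNA.

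For the remaining members, log2 fold changes were -0.06 (SE 0.14) for Myl2, -0.04 (SE 0.12) for Myl3, 0.00 (SE 0.09) for Mylk3, 0.17 (SE 0.11) for Myl6, 0.18 (SE 0.19) for Myl9, 0.32 (SE 0.22) for Myl1 and -0.41 (SE 0.38) for Mylk, each with an edgeR adjusted p of 1. Mylk was higher in the female of all 4 litters, as were Myl2 and Myl3, and Myl6 in the male of all 4. Among markers of other cells, 0 of 8 endothelial markers were higher in males (median log2 fold change -0.72, 1 called with the block), and 8 of 8 fibroblast markers were (median 0.70, 5 called with the block), with 0 called in either list without the block. Their part in the values of Mylk, Myl6 and Myl9 was not tested. The fold change of Myl1 was -0.02 without litter 2. The median over the 9 genes was 0.17, beside 0.00 over all genes tested.

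Ratios within a library need no scaling between libraries, so the balance of atrial to ventricular chains was also compared as a ratio of counts. Myl7 counts were 0.331, 1.38, 0.389 and 0.452% of Myl2 counts in the males of litters 1 to 4, and 0.189, 0.0614, 0.187 and 0.309% in the females, so that the sexes did not overlap. The log2 ratio was -7.55 ± 0.93 in males and -9.28 ± 0.99 in females (SD, n = 4), a difference of 1.72. In the exact permutation test over all 35 distinct splits, two-sided, p was 0.0286, the smallest these splits can give, and 0.0857 after adjustment over the 3 ratios tested. Comparing brother and sister, the difference was higher in males in 4 of 4 litters and had an SD of 1.85, with an exact sign-flip p of 0.125, the smallest possible with 4 pairs. Leaving out single libraries gave differences from 1.26 to 2.04, and without litter 2 it was 0.80.

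Myl4 counts were 1.03, 2.94, 1.95 and 1.23% of Myl3 counts in the males of litters 1 to 4 and 0.625, 0.347, 1.54 and 0.878% in the females, and here the sexes overlapped. The log2 ratio was -5.93 ± 0.68 in males and -7.09 ± 0.90 in females (SD, n = 4), a difference of 1.16 (exact permutation p = 0.114, two-sided, adjusted 0.171). It was also higher in the male of 4 of 4 litters, and without litter 2 it was 0.52 (adjusted exact permutation p = 0.6, with too few splits left for a pass). The kinase ratio, Mylk3 to Mylk, differed by 0.37 on the log2 scale (7.36 ± 0.61 in males and 7.0 ± 0.90 in females, SD, n = 4, exact permutation p = 0.514), with males higher in 3 of 4 litters. That difference ran from 0.10 to 0.79 when single libraries were left out.

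**Figure D2:**
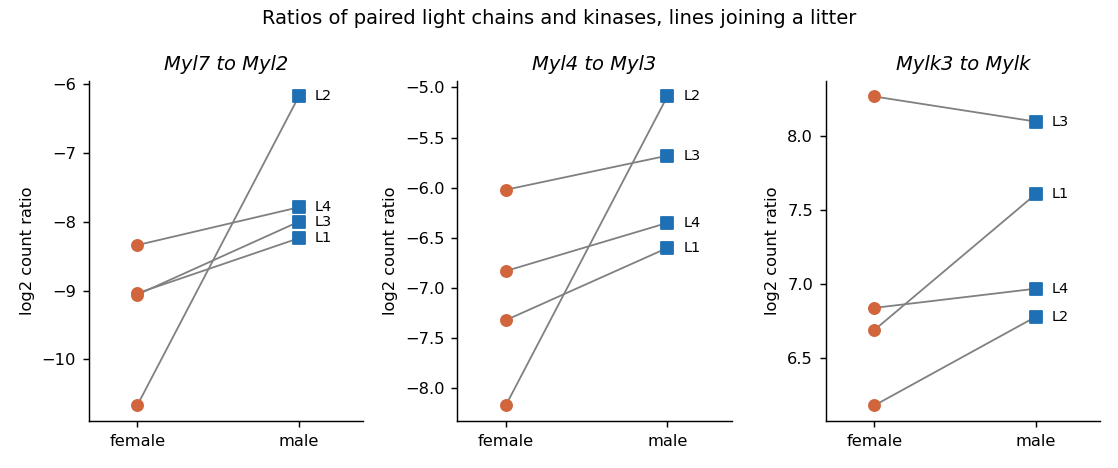
Log2 ratio of the counts of 2 genes within each library, for the atrial to ventricular regulatory chain (left), essential chain (middle) and the cardiac to broad kinase (right), with lines joining the female and the male of a litter (L1 to L4). All 4 lines rise in the left and middle panels, by most in litter 2, and in the right panel litter 3 lies above the other litters in both sexes.

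Most markers of atrial muscle were higher in the male of litter 2, as the atrial chains were, but by amounts that differed widely. Of 12 atrial markers, 11 were higher in the male of litter 2 than in its sister, with a median log2 ratio of 0.54, against 6, 9 and 10 markers and medians of 0.02, 0.23 and 0.28 in litters 1, 3 and 4. Sln, which encodes an inhibitor of the calcium pump in atrial muscle, had 16.1 CPM in that male and 0.457 CPM in that female (382 and 10 counts). Bmp10, a growth factor of the right atrium, had 26.5 and 1.97 CPM, and Dkk3, a secreted protein, 31.9 and 7.91 CPM. These were among the larger gaps. Tbx5, Kcnj3, Nr2f2, Adm and Pam were 1.04-fold to 1.28-fold higher in that male, beside 21.7-fold for Myl7. Kcna5 was lower in that male, at 0.405-fold. None of the 12 markers was at 0 in any library. Their summed level was 1920 CPM in this male and 1266 CPM in this female, and between 1287 and 1594 CPM in litters 1 and 4. Most of each sum came from Nppa and Pam, at 480 and 1231 CPM in this male and 181 and 962 CPM in this female.

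In litter 3 the sum of atrial markers was 3239 and 3418 CPM, most of it from Nppa, the atrial natriuretic peptide, at 1202 and 1544 CPM and from Pam, an enzyme that finishes peptides. There Myl7 had 36.8 and 18.7 CPM, the lowest male and the second lowest female, whereas Myl4 had 88.1 and 72.4 CPM, the second highest male and the highest female. Sln had 4.39 and 0.141 CPM, from 99 and 2 counts. That is 31.2-fold higher in the male, where Myl7 was 1.97-fold higher. The 6 ventricular markers summed to 7857 CPM in the male of litter 2 and 7490 CPM in the female. Of the genes listed, Gja5, a gap junction protein that atrial muscle and the conduction system also make, had 30.9 CPM in the male and 17.5 CPM in the female, and Irx4 and Hey2, transcription factors of ventricular muscle, had 164 and 106 CPM in the male and 170 and 120 CPM in the female. The part of atrial tissue in the differences of Myl7 and Myl4 was not tested.

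**Figure D3:**
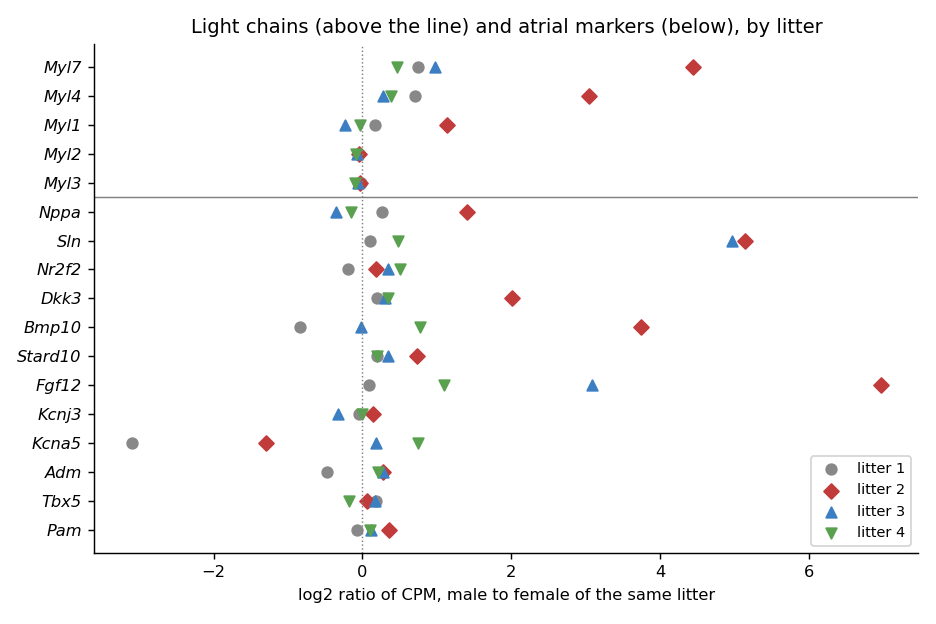
Log2 ratio of CPM, male to female of the same litter, for the striated muscle light chains (above the line) and 12 atrial markers (below), with a symbol per litter. In litter 2 (diamonds) Myl7, Myl4 and 11 of the 12 markers are higher in the male, whereas Myl2 and Myl3 lie near 0 in all 4 litters; the low markers Fgf12 and Kcna5 rest on few counts.

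Litter was the second comparison, with 2 pups of each. In edgeR's test of the 4 litters together, with sex in the model, 4 of 9 members passed, namely Myl9 (adjusted p = 0.000807), Myl2 (0.000918), Myl3 (0.0025) and Mylk (0.00291). Of all genes, 32.1% were called, so the count is not particular to this family. The distance between the highest and the lowest litter was 0.50 on the log2 scale for Myl2, 0.43 for Myl3, 0.77 for Myl9 and 1.57 for Mylk, a 2.96-fold range for the last. It was 0.31 for Myl6 (adjusted p = 0.058) and 0.16 for Mylk3 (0.434). The atrial chains had wide ranges, 1.13 for Myl7 (adjusted p = 0.356) and 0.76 for Myl4 (0.508), that did not pass beside the gap within litter 2. Without litter 2 (chosen after the data were seen), 7 members passed, where 33.4% of all genes did, Myl7 with a range of 0.94 (edgeR adjusted p = 0.000184) and Myl4 with one of 0.73 (0.000674) among them. Without the male or without the female of litter 2 there were also 7 (29.6 and 28.7% of all genes), with ranges of 2.49 and 2.18 for Myl7 and 1.79 and 1.54 for Myl4, where the lone pup is assumed to vary like the other litters.

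Both ventricular chains, the smooth muscle chain and the smooth muscle kinase were lower in litter 3 than in the mean of the other 3 litters. Myl2 changed by -0.39 (SE 0.06, edgeR adjusted p = 0.000424), which is 1.31-fold lower in the fit. Means without TMM scaling were 12343 CPM in the others and 9720 ± 384 CPM (SD, n = 2) in litter 3. Myl3 changed by -0.36 (SE 0.06, adjusted p = 0.000623), Myl9 by -0.57 (SE 0.08, adjusted p = 0.000316) and Mylk by -1.21 (SE 0.21, adjusted p = 0.00141), which is 2.32-fold lower. That makes 4 members lower and 0 higher, where 14.8% of all genes were lower and 13.6% higher (28.3% in either direction), and the median over the 9 was -0.36 beside 0.00 over all genes. These 4 calls held whichever of the 8 libraries was omitted. Mylk3 went the other way without passing (0.12, SE 0.07, edgeR adjusted p = 0.224). The ratio of Mylk3 to Mylk was highest in the pups of litter 3, at 274 and 310, where Mylk was lowest. By litter, this ratio had 90.0% of its variance after removal of the sex means between litters (exact permutation p = 0.0833 over 24 matchings, one-sided, adjusted 0.25, where 0.0417 is the smallest possible). For Myl7 to Myl2 the share was 6.8% (p = 0.833) and for Myl4 to Myl3 34.4% (p = 0.667), both in the exact permutation test. Without litter 3 the shares were 74.9% for Mylk3 to Mylk, 6.6% for Myl7 to Myl2 and 7.4% for Myl4 to Myl3, each with an adjusted exact permutation p of 0.833. Too few matchings are left there for any ratio to pass.

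Without litter 3, the litter test called 13.7% of all genes, and of the members Myl9 (range 0.33, edgeR adjusted p = 0.0285) and Myl6 (0.31, 0.048) alone. Myl2 had a range of 0.26 (adjusted p = 0.0508), Myl3 one of 0.15 (0.307) and Mylk one of 0.67 (0.0813). In the other litters the members that passed were higher, not lower. Litter 1 had Myl9 at 0.46 (SE 0.07, adjusted p = 0.00228) and Myl2 at 0.18 (SE 0.05, adjusted p = 0.0479), against 7.86% of all genes called higher and 5.41% lower. Litter 2 had Mylk alone, at 0.88 (SE 0.17, adjusted p = 0.0122), against 3.3% of genes called higher and 4.18% called in either direction. Litter 4 had Myl2 at 0.28 (SE 0.05, adjusted p = 0.00921), Myl3 at 0.22 (SE 0.05, adjusted p = 0.0262) and Myl6 at 0.27 (SE 0.07, adjusted p = 0.0391), against 4.71% of genes called higher and 5.8% lower. The 4 comparisons share libraries and are not independent. These smaller calls depended on single libraries. Myl2 in litter 1 lost its call in 6 of the 8 fits that omit a library. Myl9 in litter 1 lost it without its female (change of 0.39), and Mylk in litter 2 without its male (0.91) or its female (0.84). In litter 4, Myl2, Myl3 and Myl6 each lost their call in some of these fits. When scaled by library totals without TMM, Myl2 kept its call in litter 4 (0.20, edgeR adjusted p = 0.0324), while Myl3 (0.14, 0.118) and Myl6 (0.19, 0.105) lost theirs.

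**Figure D4:**
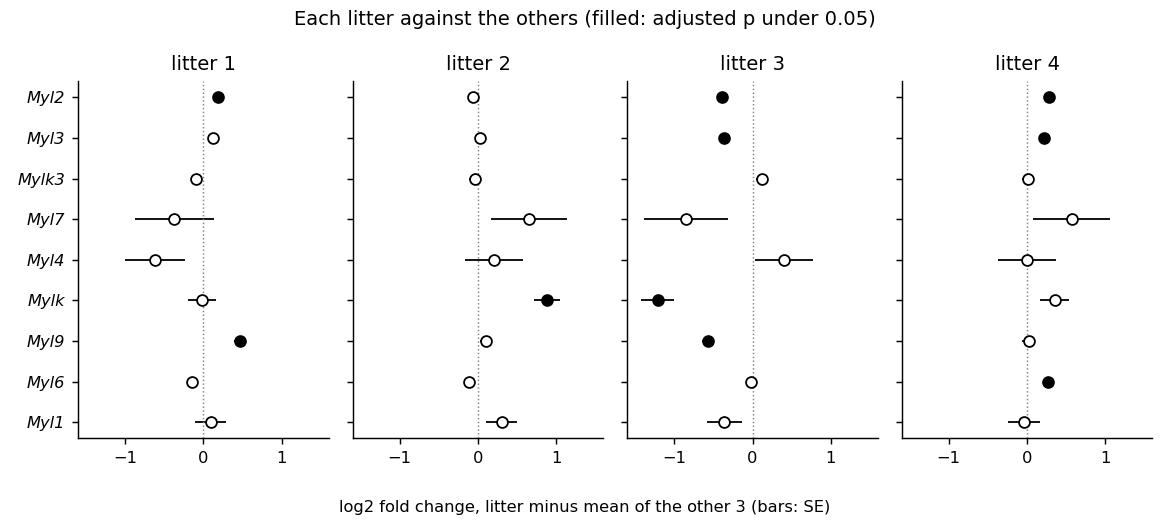
Log2 fold change of each gene in a litter minus the mean of the other 3, with bars for the standard error and filled points for an adjusted p under 0.05 in edgeR's quasi-likelihood test. In litter 3 the filled points (Myl2, Myl3, Mylk and Myl9) lie below 0, and in litters 1, 2 and 4 the filled points lie above 0.

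Markers of other cells were set beside the non-cardiac members. Mylk was highest where endothelial markers were: 8 of them, such as Cdh5 and Pecam1, which hold endothelial cells together, summed to 82.4 and 150.5 CPM in the male and the female of litter 2, with Mylk at 5.98 and 8.23 CPM. In litter 1 the female had 62.0 CPM of these markers and the male 16.0 CPM, with Mylk at 5.77 and 3.13 CPM. All 8 passed the litter test, against 32.1% of all genes, and 5 were lower in litter 3, against 14.8%, where they summed to 18.4 and 20.0 CPM. The pups of litter 4, with 27.9 and 23.1 CPM of these markers, had Mylk at 4.88 and 5.30 CPM, so that the order of the libraries was not the same throughout. Smooth muscle markers spanned a wide range, from Myh11, the smooth muscle myosin heavy chain, at 0.311 to 6.44 CPM and Tagln at 4.05 to 16.0 CPM to Smtn at 122 to 244 CPM and Des at 1241 to 1452 CPM. In litter 3 Tagln had a change of 0.00 and Myh11 one of -2.15 (SE 0.43, edgeR adjusted p = 0.0036). Some mural markers followed the litter course of Mylk, which was lower in litter 3 and higher in litter 2. Pdgfrb changed by -2.3 in litter 3 and 1.87 in litter 2, and Rgs5 by -2.21 and 1.69. Notch3 was also called in both litters, in the same directions. Of the 12 mural or smooth muscle markers, 5 were called higher in litter 2 and 0 lower. In litter 3, 6 were called lower and 0 higher. The part of these cells in the level of Mylk was not tested.

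Myl9, at 353 to 613 CPM, lay within the range of the mural or smooth muscle list, below Des and above Myh11 and Tagln in every library. Acta2, smooth muscle actin, which immature cardiomyocytes also make, had 806, 903, 378 and 985 CPM in the males of litters 1 to 4 and 860, 817, 351 and 869 CPM in the females. In litter 3 it changed by -1.31 (SE 0.07, edgeR adjusted p = 9.63e-07). Of the 12 mural or smooth muscle markers, 6 were lower and 0 higher in litter 3, against 14.8 and 13.6% of all genes, and the whole list summed to 2485 and 2486 CPM there against 2813 to 3068 CPM elsewhere, with Des, which muscle cells of the heart also express, as its largest part in every library. Outside litter 3 the next largest was Acta2. No marker of the list was at 0. Fibroblast markers summed to 53.0 and 33.1 CPM in litter 3 and to 105 to 246 CPM elsewhere, and what part of Myl9 came from such cells was not tested.

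**Figure D5:**
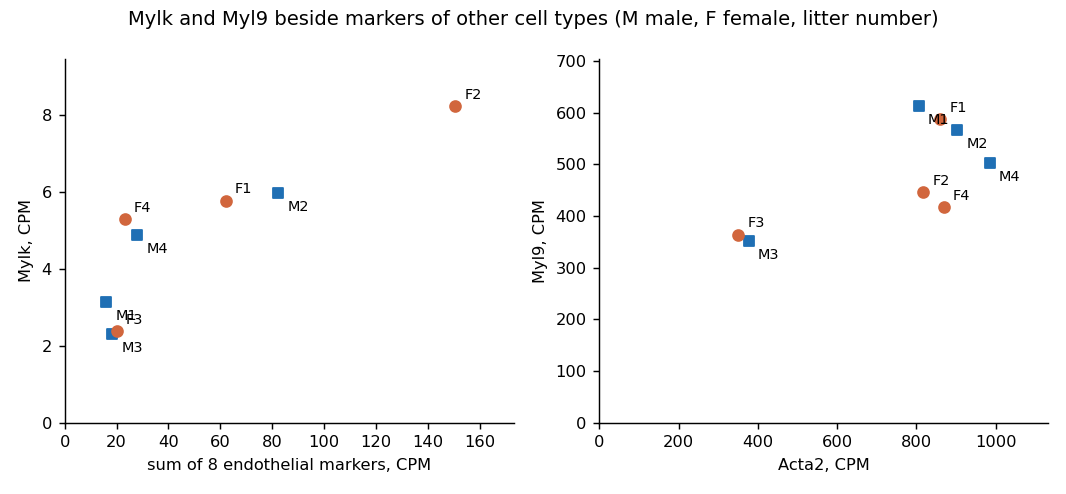
Left, Mylk against the sum of 8 endothelial markers, and right, Myl9 against Acta2, both in CPM on linear axes from 0, with 1 point per library (M male, F female, with the litter number). The pups of litter 3 lie at the lower left in both panels, and the female of litter 2, at 150.5 and 8.23 CPM, is at the upper right of the left panel.

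Genes with the most similar course over the 8 libraries were sought for the 4 members called by litter, among 11149 other genes with a mean of at least 50 counts. Likeness was the root mean square difference between log2 CPM values, each centred on its gene's mean, and is a description over libraries that share litters. For Myl2 the nearest were Ndufa13, a subunit of respiratory complex I, Mrpl49, of the mitochondrial ribosome, and Psmc5, of the proteasome, all at 0.05, and Myl3 was as near at 0.05. For Myl3 they were Coa3, an assembly factor of cytochrome oxidase, Zc3h8 and the chromatin remodeller subunit Smarcd3, all at 0.04. Myl2 and Myl3 vary little, so many genes come close, with a median distance of 0.25 and 0.23 over all candidates. For Myl9 they were the RNA methyltransferase Mettl16 (0.07), the replication factor subunit Rfc5 (0.08) and Coprs (0.09), with a median of 0.34. Mylk had no such close match: Rarg, a retinoic acid receptor, lay at 0.23, Emilin1, an elastic fibre protein, at 0.26 and Scarf2 at 0.28, with a median of 0.64.

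The other light chains ranged from undetected to abundant. Of 5 listed, Myl10 had 0 counts in all 8 libraries, and 1 of the 4 tested passed by litter: Myl12b, a non-muscle regulatory chain, at 25.1 and 22.4 CPM in litter 3 and 14.01 to 19.7 CPM elsewhere (0.44, SE 0.10, edgeR adjusted p = 0.00538). Its near copy Myl12a was far more abundant, at 275 to 327 CPM, and did not pass (adjusted p = 0.0806 in the litter test). Mylpf, the fast skeletal regulatory chain, stood at 0.701 to 1.76 CPM. The light chains listed were therefore led, after the ventricular pair and Myl9, by Myl12a.

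Among 13 tested kinases of the light chain and calmodulins, 6 passed by litter, the share of all genes being 32.1%. In litter 3, 3 were lower and 1 was higher. Cit, a kinase of the cleavage furrow, changed by -1.40 (SE 0.19, edgeR adjusted p = 0.000303). Rock2, a kinase that phosphorylates the chain and inhibits its phosphatase, was higher in litter 3 by 0.49 (SE 0.06, adjusted p = 0.000169). Dapk1, a death-associated kinase, was higher in litter 1 by 0.47 (SE 0.07, edgeR adjusted p = 0.00191) and lower in litter 4. None of the 13 was called by sex. Mylk2, the skeletal muscle kinase, had at most 6 counts in a library, and Mylk4, a further kinase of the family, had 8.59 to 16.4 CPM and did not pass (adjusted p = 0.108).

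Of 7 tested genes of the myosin phosphatase and its inhibitors, 2 passed by litter, against 32.1% of all genes, with a median range of 0.22 beside 0.37 over all genes. Ppp1r14a, an inhibitor of the phosphatase with 1 to 16 counts, had the widest range, 2.22 (edgeR adjusted p = 0.0632), and was lower in litter 3 by -2.08 (SE 0.57, adjusted p = 0.0177). Its catalytic subunit Ppp1cb had 386 to 510 CPM (adjusted p = 0.15), and Ppp1r12b, the striated muscle targeting subunit, 302 to 396 CPM (0.07). Ppp1r12a, the targeting subunit of smooth muscle and other cells, passed (edgeR adjusted p = 0.00442), lowest in litter 4 with 69.9 and 65.0 CPM. Ppp1r14b, an inhibitor, also passed (0.0377).

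The heavy chains that the light chains bind gave 4 calls by litter among 8 tested, against 32.1% of all genes. In litter 3, 4 of the 8 were lower and 1 was higher, against 14.8 and 13.6% of all genes. Myh6, the main heavy chain at this age, moved as Myl2 and Myl3 did in litter 3, by -0.61 (SE 0.09, edgeR adjusted p = 0.000622), at 17310 and 16444 CPM against 19369 to 29024 CPM elsewhere. Myh7, the slow heavy chain, which shares sequence with Myh6, moved the other way by 2.74 (SE 0.08, adjusted p = 5.13e-09). None of the 9 genes was called higher in litter 3, where Myl4 had 0.40 (SE 0.37, edgeR adjusted p = 0.441). None of the 8 heavy chains was called by sex.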

How the data were processed

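RNA-seq counts of 8 libraries were analysed. Per the submitters' processing notes, STAR 2.7.3a and mm10 were used, and the deposited table holds unnormalised counts by gene symbol, made by the authors. The counting program, annotation and strand setting are not given in the sources used here. Per the labels' protocols, libraries came from a stranded total RNA kit, while the labels call the molecule polyA RNA. Each library is 1 pup by its labels. Totals were 14226342 to 24910243 counts.

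Genes were filtered with filterByExpr on sex (13771 kept of 48440), scaled by TMM and tested with edgeR 4.0.16 in R 4.3.3 by its quasi-likelihood F test, without a litter term for sex and with sex in the litter model. P-values were adjusted by Benjamini-Hochberg over all tested genes, with a threshold of 0.05. Standard errors are the absolute log2 fold change over the square root of F. CPM uses deposited totals. Ratios were tested by exact permutation. DESeq2 1.42.0, other scalings, no filter, a litter block and leaving out libraries were alternatives. Scripts were tested on simulated counts.

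The members, lists and the rule for naming genes were chosen with earlier results of these data known. All 9 members are named, up to 4 genes a list with the smallest adjusted p by litter, and 3 genes most like each member called. One gene that this rule selects is not reported here. Other genes named for their role or as markers were chosen after their values were seen. The labels give a sample's number as its litter, so the numbers pair siblings. With the mean of each sex removed, correlations across genes were 0.505, 0.503, 0.696 and 0.367 within litters and -0.482 to 0.27 between. Libraries of a sex differed beyond sampling noise (chi-square per degree of freedom at least 10.4).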

Additional observations from a re-analysis of the deposited data

Results flagged for a closer look

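In each sex, the highest or lowest of the 4 libraries was compared with the other 3 for the 9 genes and the 3 ratios. Of 24 such groups, 2 had a library far outside the rest, where chance gives about 1 in 20. The male of litter 2 had 153.9 CPM of Myl7, against 36.8 to 56.5 CPM in the other males. The female of litter 3 had 739.8 CPM of Mylk3, against 596 to 607 CPM in the other females, while the male of litter 3, at 633 CPM, lay among the other males. The library of that female had the smallest total, 14226342 counts.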

How the results depend on the processing

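The 0 of 9 members called by sex stayed at 0 under every alternative run, the litter block (replicate block) included, with each library left out in turn, and without litter 2. The block changed no call of a member. The 4 members called by litter (32.1% of all genes) became 7 without a filter on low counts (where 23% of all genes were called). They were 7 without litter 2 (33.4% of all genes) and 2 without litter 3 (13.7%). Leaving out single libraries also moved this count, and gave ranges of 0.48 to 0.51 for Myl2, 0.41 to 0.45 for Myl3, 0.63 to 0.93 for Myl9 and 1.38 to 1.79 for Mylk. Counts in a litter against the others ran, with single libraries left out, from 0 to 3 in litter 1, 1 to 3 in litter 2, 4 to 6 in litter 3 and 0 to 5 in litter 4. Without a filter they were 4 in litter 1, 2 in litter 2, 6 in litter 3 and 4 in litter 4, without a sex term 1 in litter 1 and 2 in litter 4 (where Myl6 lost its call, edgeR adjusted p = 0.101), and with library size alone 1 in litter 4. The cause of these shifts was not tested, but with 1 pup left in a litter its spread is taken from the others.

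Direction by sex turned for Myl1 without litter 2 (-0.02). With single libraries left out it ran from -0.15 to 0.04 for Myl2 and from -0.13 to 0.04 for Myl3, and for Mylk3, at 0.00, from -0.05 to 0.06. For the ratios by sex the pairing cannot move the differences (1.72, 1.16 and 0.37), and the adjusted exact sign-flip p was 0.188, 0.188 and 0.375. Single libraries left out gave 0.80 to 1.51 for Myl4 to Myl3. Levels per kilobase moved with the length used, Mylk3 to 147 and Myl1 to 4.13 with all exons. Counting error is small for the abundant chains and limits Mylk, with 34 to 180 counts.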
